A study of Mus musculus with 4 samples.

Results

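Transcripts of 10 genes of the Notch pathway were followed in mouse embryonic fibroblasts (MEF cells) with and without Top2β. The genes are the 4 receptors Notch1, Notch2, Notch3 and Notch4, the ligands Jag1, Jag2 and Dll1, and the target genes Hes1, Hey1 and Heyl. They were chosen by name as a pathway and make up 10 of the 54842 genes in the deposited table. Total RNA depleted of ribosomal RNA had been sequenced from 2 libraries of wt MEF cells, labelled as wild-type controls, and from 2 libraries of MEF cells null for Top2β, all of them untreated and kept in the same medium. The Top2β-null cells were derived from Top2β-null mice and came to the authors from other laboratories. The methods cite another source for MEF cells and do not say whether the wt libraries came from it. The effects of losing Top2β and of a possible difference in cell origin therefore cannot be told apart. Neither the age of the embryos nor separate cultures are given for the libraries, so the p-values measure the spread between these libraries, which may be technical. Top2β is a DNA topoisomerase that passes one DNA duplex through another and has been studied for its part in transcription.

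Notch signaling acts between touching cells. A transmembrane ligand of the Delta or Jagged type on one cell binds a Notch receptor on its neighbour, metalloproteases and then γ-secretase cut the receptor, and its intracellular part enters the nucleus and joins the DNA-binding protein Rbpj and a Mastermind coactivator to switch on genes of the Hes and Hey families. In mesenchymal cells Notch2 is a common receptor, Notch3 is best known from vascular smooth muscle cells and pericytes, and Notch4 from endothelial cells. The receptors and ligands are large glycoproteins, and Hes and Hey proteins are transcriptional repressors of the basic helix-loop-helix type.

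The libraries held 133116830 to 149647278 counts each. Top2b, the targeted gene (chromosome 14, from 16365179 to 16435462 on GRCm38), had 18259 and 18465 normalized counts in wt as against 3879 and 3789 in Top2β-null libraries, so that the libraries match their labels in this gene. Normalized counts are counts scaled by edgeR's TMM factors to a common library size. Of the 10 defining fibroblast markers, Col1a1, Col1a2, Col3a1, Vim and Fn1 had at least 11983 normalized counts in every library, while Lum had at most 3.96. By the cut-offs given next, 4 of the 10 were called higher in Top2β-null MEF cells, namely Dcn (31.8-fold), Thy1 (4.21-fold), Pdgfrb (3.68-fold) and Pdgfra (2.23-fold), and Col1a1 (2.60-fold) and Col3a1 (2.01-fold) were called lower, where 5.52% and 5.25% of all genes tested were called. In such bulk libraries, fewer cells of a type and less RNA per cell cannot be told apart.

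A gene passed the test with an adjusted p below 0.05 in the quasi-likelihood test of edgeR, adjusted by Benjamini and Hochberg's method over all 26566 genes and repeat families tested. For a call, the cut-offs of the study's methods were used, where in addition the log2 fold change lies beyond 1 in either direction and the mean exceeds 100 normalized counts. Of the 10 genes, 8 reached 10 counts in 2 or more libraries and were tested, while Dll1 and Heyl were not. Notch1 and Notch3 were called higher and Jag1 was called lower in Top2β-null MEF cells. Among all 25085 genes tested, 5.52% were called higher and 5.25% lower. With the adjusted p alone, 3 of the 8 rose and 2 fell, where 32.8% of all genes tested rose and 33.7% fell. The libraries of the 2 genotypes did not overlap for 7 of the 8, which held for 81.9% of all genes tested. The median log2 fold change of the 8 was 0.15, against -0.0058 over all genes tested.

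The sequences in front of the RefSeq start sites of the 3 called genes are given here. Counts were made per gene, so they do not show from which start site the RNA came. They were taken from RefSeq on GRCm38.p6 and are the bases before the RefSeq start, cut where an exon of GENCODE begins. Capitals mark each GC box, the letters GGGCGG on either strand, a sequence bound by Sp1-like factors. The stretch in front of Notch1 is chr2:26503825-26504072, that of Notch3 is chr17:32166891-32167140 and that of Jag1 is chr2:137116645-137116770, all on the minus strand and written 5′ to 3′. The printed stretch of Notch1 lies within its GENCODE gene, which begins at 26516663 on the minus strand. The RefSeq starts of Notch1 and Jag1 lie inside the longer genes of GENCODE. The printed bases of Jag1 therefore end well short of its RefSeq start, and the window read for Jag1 in the counts of GC boxes includes the GENCODE bases that are not printed.
Notch1: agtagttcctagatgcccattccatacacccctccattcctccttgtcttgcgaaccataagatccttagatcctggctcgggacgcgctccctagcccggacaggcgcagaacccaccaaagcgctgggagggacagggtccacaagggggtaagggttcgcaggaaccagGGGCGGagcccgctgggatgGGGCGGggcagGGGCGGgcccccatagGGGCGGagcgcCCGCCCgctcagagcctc
Notch3: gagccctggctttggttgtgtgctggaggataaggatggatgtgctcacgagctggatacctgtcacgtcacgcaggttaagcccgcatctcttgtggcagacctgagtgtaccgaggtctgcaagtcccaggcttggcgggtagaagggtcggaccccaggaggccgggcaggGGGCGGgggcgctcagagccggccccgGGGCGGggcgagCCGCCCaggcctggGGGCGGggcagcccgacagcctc
Jag1: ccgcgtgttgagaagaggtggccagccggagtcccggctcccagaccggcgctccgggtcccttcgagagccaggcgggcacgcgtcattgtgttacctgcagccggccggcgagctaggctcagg

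RefSeq promoters were at hand for 7 of the 10 genes and were read over the 250 bases before the start. Hes1, Hey1 and Heyl had no entry. The windows of Notch1 and Notch3 held 5 and 4 GC boxes and 66.0% and 68.8% G and C, while that of Jag1 held no GC box and 57.2% G and C. A GC box was present in 32.7% of all 32851 windows of this length, and their median content of G and C was 52.4%. Notch2 and Jag2, which were not called, had 5 GC boxes each, and Notch4 and Dll1 had none. The core letters of an Rbpj site, TGGGAA on either strand, were found in none of the windows of these 7 genes, against 21.6% of all windows. A match or its absence describes these letters in this window only.

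Notch3 showed the largest fold of the 8 genes tested. This receptor (ENSMUSG00000038146, chromosome 17, from 32120820 to 32166852, minus strand, GRCm38) had 21.2 and 30.9 normalized counts in wt as against 504.4 and 578.4 in Top2β-null libraries. Both Top2β-null libraries lay far above both wt libraries. The log2 fold change was 4.37 (SE 0.160, edgeR adjusted p = 6.4e-13), which is 20.6-fold. Among the 16656 genes with a mean normalized count over 100, Notch3 ranked 298 from the top by log2 fold change. A non-coding gene of the opposite strand, Gm17276, overlaps 21024 bases of the Notch3 locus. It had 3 and 0 counts in the wt and 16 and 26 counts in the Top2β-null libraries, and its log2 fold change was 3.73 (SE 0.711, edgeR adjusted p = 2.4e-04). The library kit keeps the strand, but the strand setting of the counting is not given in the sources used here, so reads of the 2 genes may not have been separated. Notch3 had 487 and 584 counts in the Top2β-null libraries, and the part of Gm17276 in them was not tested. Of the 17 other genes tested within 500 kb of Notch3, 1 was called higher and none lower (5.52% and 5.25% over all genes tested), and their median log2 fold change was -0.19.

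Since Notch3 is widely used as a marker of mural cells (smooth muscle cells and pericytes), 8 markers of these cells were read beside it. Of these, 5 were tested, of which none was called higher and 2, Acta2 and Mcam, were called lower in Top2β-null MEF cells (5.52% and 5.25% over all genes tested). With the adjusted p alone, Des and Cspg4 fell as well, Des from 88.8 and 139.1 to 2.07 and 0.990 normalized counts, and Myh11 did not pass. The 3 markers too low for a test were Kcnj8, with 0 and 0.966 normalized counts in wt as against 4.14 and 9.90 in Top2β-null libraries, Rgs5, with means of 2.98 and 3.02, and Abcc9, with at most 3.03 in a library. The sum over the 8 was 142030 to 146117 normalized counts in the wt and 29015 to 29028 in the Top2β-null libraries, nearly all of it from Acta2 and Cspg4. The part of mural cells in the level of Notch3 was not tested.

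Notch1 rose 2.04-fold. This receptor (ENSMUSG00000026923, chromosome 2, from 26457903 to 26516663, minus strand) had 865.0 and 826.8 normalized counts in wt as against 1762 and 1698 in Top2β-null libraries. The groups were well apart, with replicates close to each other. The log2 fold change of 1.03 (SE 0.0539, edgeR adjusted p = 6.0e-11) lies within 1 standard error of the cut-off of 1. Without wt replicate 2 it was 0.98 (edgeR), so that Notch1 was no longer called, although it still passed the test. The non-coding genes 0610009E02Rik and Gm13568 overlap its last 1488 and 414 bases on the opposite strand. 0610009E02Rik had a log2 fold change of 0.26 (edgeR adjusted p = 0.142), and Gm13568, with 7 and 11 counts in the wt and 20 and 22 counts in the Top2β-null libraries, had one of 1.25 and passed the test (edgeR adjusted p = 0.0171). Reads of these genes and of Notch1 may likewise not have been separated.

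Notch2 was by far the most abundant of the 10 genes in both genotypes. This receptor (ENSMUSG00000027878, chromosome 3, from 98013527 to 98150361, plus strand) had 24447 and 24507 normalized counts in wt as against 27536 and 27056 in Top2β-null libraries. Both Top2β-null libraries lay above both wt libraries by a small margin. The log2 fold change was 0.16 (SE 0.0246, edgeR adjusted p = 3.4e-05), or 1.12-fold. It rose but was not called. The annotated single-exon genes Gm42819 and Gm42820 lie within Notch2 on the same strand, with means of 801.2 and 1164 normalized counts, and reads there may belong to either gene. Under scaling to the total count, which moves the median gene by 0.070, the log2 fold change of Notch2 was 0.23.

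Notch4, the receptor of endothelial cells (ENSMUSG00000015468, chromosome 17, from 34564268 to 34588503, plus strand), was low in all libraries. It had 119.1 and 90.8 normalized counts in wt as against 87.0 and 70.3 in Top2β-null libraries, so that the groups nearly touched. Its log2 fold change of -0.42 (SE 0.201, edgeR adjusted p = 0.0837) did not pass the test. Without wt replicate 2 it was -0.61 and passed (edgeR adjusted p = 0.0191), whereas it was -0.22 without wt replicate 1 (edgeR adjusted p = 0.463) and -0.25 without Top2β-null replicate 2 (edgeR adjusted p = 0.377). Of 8 endothelial markers, 5 were tested, of which 1 (Kdr) was called higher and none lower (5.52% and 5.25% over all genes tested). Their sum over all 8 was 214.4 to 241.2 in the wt and 371.8 to 378.3 in the Top2β-null libraries, a difference that lay mostly in Kdr, with group means of 70.1 and 204.0. Tek, a receptor kinase of endothelial cells, fell in the same direction as the fold of Notch4, from 43.4 and 34.8 to 9.32 and 3.96 normalized counts (log2 fold change -2.54, edgeR adjusted p = 7.8e-05), and Vwf rose, at a log2 fold change of 0.86 (edgeR adjusted p = 0.0019). Cdh5, which encodes VE-cadherin, had 22.8 to 32.3 normalized counts, and Emcn had 1 count in 1 library and 0 in the others. The part of endothelial cells in the level of Notch4 was not tested.

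**Figure D1:**
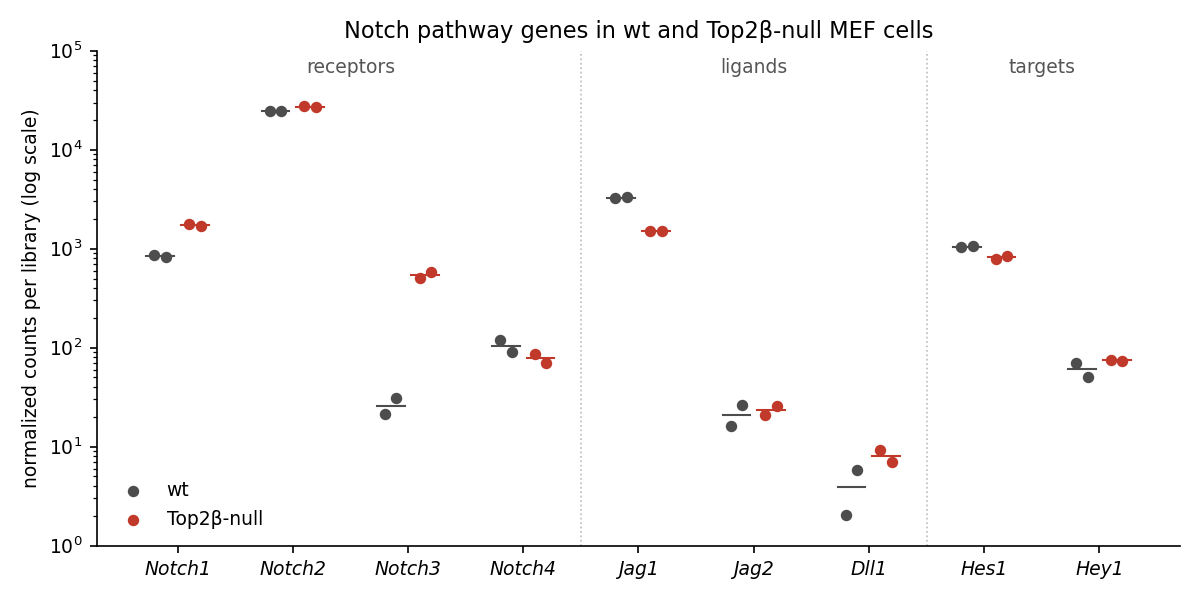
Normalized counts (log scale) of 9 Notch pathway genes in the 2 wt (grey) and 2 Top2β-null (red) libraries, with 1 point per library and a line at each group mean. Notch3 lies at 21.2 and 30.9 in wt and at 504.4 and 578.4 in Top2β-null MEF cells, Jag1 is lower in Top2β-null MEF cells, and Heyl, with 0 counts in wt, is not drawn.

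The make-up of the receptor pool was read from counts per kb of exon within each library, which needs no scaling between libraries and corrects for the exon lengths of 8061 to 14232 bases. Notch2 made up 96.7% and 96.9% of the receptors' counts per kb in wt as against 92.8% and 92.6% in Top2β-null libraries. Its share was lower in both Top2β-null libraries, by 4.04 percentage points in the means against a pooled replicate SD of 0.148. Notch1 went from 2.53% ± 0.0812 (SD, n = 2) to 4.45% ± 0.0683 (SD, n = 2), and Notch3 from 0.137% ± 0.0362 (SD, n = 2) to 2.45% ± 0.264 (SD, n = 2). Notch4 stayed below 1% in all 4 libraries, with 0.555% ± 0.106 (SD, n = 2) and 0.357% ± 0.0497 (SD, n = 2). Each difference exceeds its pooled replicate SD, but a two-sided exact permutation test of 2 libraries against 2 cannot give a p below 0.33, which is the p for each of the 4 receptors. In Top2β-null MEF cells Notch3 thus stood above Notch4 in normalized counts per kb (66.9 ± 6.47 against 9.76 ± 1.46, SD, n = 2), whereas in wt MEF cells it stood below (3.22 ± 0.849 against 13.0 ± 2.48, SD, n = 2). Summed over the 4 receptors, the level was 2346 ± 0.356 normalized counts per kb (SD, n = 2) in wt cells and 2730 ± 29.7 (SD, n = 2) in those without Top2β.

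**Figure D2:**
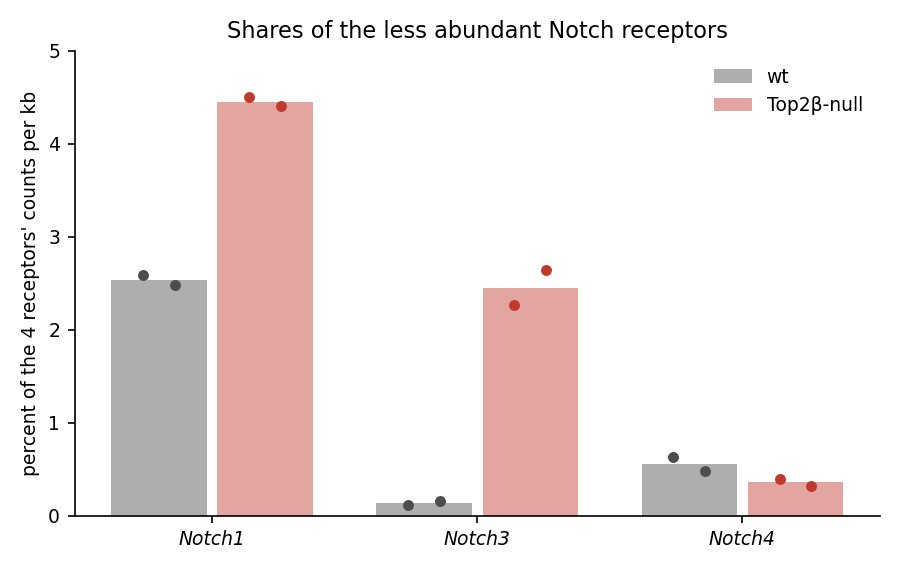
Percent of the summed counts per kb of the 4 Notch receptors taken by Notch1, Notch3 and Notch4 in wt (grey) and Top2β-null (red) MEF cells, with bars at the mean of 2 libraries and 1 point per library. Notch1 takes 2.53% (wt) and 4.45% (Top2β-null), Notch3 takes 0.137% (wt) and 2.45% (Top2β-null), and Notch2 holds the remainder in each group.

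Of the ligands, Jag1 was the abundant one, and it fell. Jag1 (ENSMUSG00000027276, chromosome 2, from 137081456 to 137116644, minus strand) had 3244 and 3335 normalized counts in wt as against 1505 and 1511 in Top2β-null libraries. The 2 genotypes were far apart and the replicates close together. Its log2 fold change was -1.13 (SE 0.0428, edgeR adjusted p = 1.0e-12), a 2.18-fold difference, and it was called lower in each of the alternatives and with each library left out. No other annotated gene with counts in the deposited table overlaps Jag1.

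Jag2, the second Jagged ligand (ENSMUSG00000002799, chromosome 12, from 112907819 to 112929776, minus strand), had 16.1 and 26.1 normalized counts in wt as against 20.7 and 25.8 in Top2β-null libraries. The groups overlapped. The log2 fold change of 0.13 (SE 0.369, edgeR adjusted p = 0.770) gives no direction at this depth, and its sign turned to -0.18 without wt replicate 1 and to -0.014 without Top2β-null replicate 2. Dll1, a ligand of the Delta type (ENSMUSG00000014773, chromosome 17, from 15367354 to 15376872, minus strand), had 2 and 6 counts in the wt and 9 and 7 counts in the Top2β-null libraries. Its ratio of 2.05 has an exact 95% interval from 0.828 to 5.54, which covers counting error only, so no difference was detectable at this depth.

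Jag1 made up 99.3% ± 0.273 (SD, n = 2) of the counts per kb of the 3 ligands in wt cells and 98.0% ± 0.0353 (SD, n = 2) in those without Top2β. The summed ligand level was therefore nearly that of Jag1 and went from 568.5 ± 12.7 normalized counts per kb (SD, n = 2) in wt cells to 264.1 ± 0.907 (SD, n = 2) in those without Top2β. The ratio of these sums was 0.465 for the ligands and 1.16 for the receptors.

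Of the target genes, Hes1 fell, Hey1 did not pass the test and Heyl was too low to read. Hes1, which encodes a repressor that is among the best known direct Notch targets (ENSMUSG00000022528, chromosome 16, from 30064384 to 30067796, plus strand), had 1038 and 1062 normalized counts in wt as against 785.0 and 846.8 in Top2β-null libraries. Both Top2β-null libraries lay below both wt libraries. Hes1 fell by 0.36 on the log2 scale (SE 0.0598, edgeR adjusted p = 5.8e-05), 1.29-fold, and was not called. Hey1, a repressor of the related Hey family (ENSMUSG00000040289, chromosome 3, from 8663359 to 8667256, minus strand), had 70.7 and 50.2 normalized counts in wt as against 75.6 and 73.3 in Top2β-null libraries. The wt libraries differed from each other by more than the group means, and the log2 fold change of 0.30 (SE 0.225, edgeR adjusted p = 0.255) did not pass the test. It was 0.55 without wt replicate 1 (edgeR adjusted p = 0.0978) and 0.061 without wt replicate 2 (edgeR adjusted p = 0.868). Heyl, the third Hey gene (ENSMUSG00000032744, chromosome 4, from 123233556 to 123249875, plus strand), had 0 counts in both wt libraries and 1 count in each Top2β-null library. This is under the floor of 3 counts per library, so no fold is given. At these depths the data do not show whether Heyl differed.

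**Figure D3:**
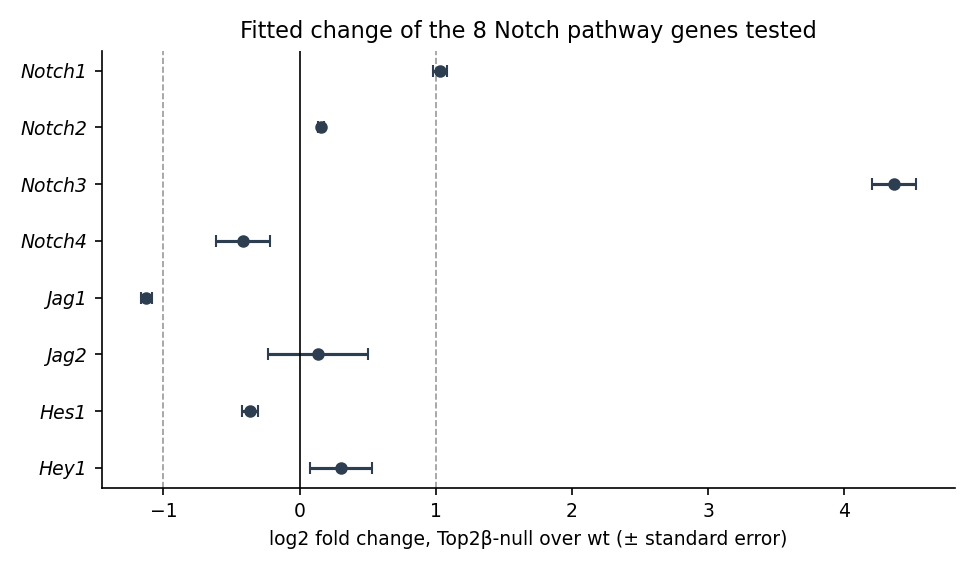
Log2 fold change of Top2β-null over wt MEF cells for the 8 genes tested (points), with bars for the standard error of edgeR's fit to 2 libraries per genotype and dashed lines at the cut-off of 1 in either direction. Notch3 stands apart at 4.37, Notch1 at 1.03 and Jag1 at -1.13 lie just past the cut-offs, and the wide bars belong to the low genes Jag2, Hey1 and Notch4.

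Ordered by normalized counts per kb, wt MEF cells had Notch2 (2270 ± 3.89, SD, n = 2) first, then Jag1 (564.5 ± 11.1), Hes1 (515.2 ± 8.31), Notch1 (59.4 ± 1.90), Hey1 (18.5 ± 4.42), Notch4, Notch3, Jag2, Dll1 and Heyl. Only Notch3 and Jag2 overlapped between neighbours in this order, with 3.22 ± 0.849 and 3.03 ± 1.01 normalized counts per kb. In Top2β-null MEF cells the order began with Notch2 (2532 ± 31.5), Hes1 (400.6 ± 21.4), Jag1 (258.8 ± 0.795), Notch1 (121.5 ± 3.18) and Notch3 (66.9 ± 6.47), and no neighbours overlapped. Jag1 and Hes1 thus changed places between the genotypes in counts per kb, which rest on the annotated exon lengths. Without division by length, Jag1 stood above Hes1 in both, with mean normalized counts of 3290 and 1050 in wt MEF cells. In Top2β-null MEF cells these means were 1508 and 815.9. With 2 libraries a group, libraries that do not overlap are a weak separation for the lowest genes.

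The rest of the pathway was read from a list of 53 genes, of which 50 were tested. Of these, 2 genes met the cut-offs with higher and 4 with lower levels in Top2β-null MEF cells, and with the adjusted p alone 23 rose and 22 fell, at background shares of 5.52% and 5.25%, and of 32.8% and 33.7%. The median log2 fold change was 0.017, close to that of all genes tested, and it was the same with Dtx1 at its lower bound. Changes went both ways in the list, as they did over all genes tested, so this is not particular to the pathway.

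In the nucleus, Rbpj, which carries the signal to DNA and represses the same genes when no Notch is bound, fell. It had 44588 and 44946 normalized counts in wt as against 23613 and 23574 in Top2β-null libraries, with groups far apart. Rbpj fell by 0.92 on the log2 scale (SE 0.0249, edgeR adjusted p = 1.2e-14), short of the cut-off of 1. Maml3, which encodes one of the 3 Mastermind coactivators, was called higher, with 436.0 and 520.6 normalized counts in wt and 1933 and 1928 in Top2β-null MEF cells. Its log2 fold change was 2.01 (SE 0.0686, edgeR adjusted p = 2.5e-13). Maml1 and Maml2, the more abundant coactivators of wt MEF cells, had log2 fold changes of 0.57 and 0.27 and also rose. Of the 9 genes of the nuclear complex 4 rose and 4 fell, and of the 9 corepressors 4 rose and 3 fell, with log2 fold changes from -0.32 to 0.36 and none called. Over all genes tested, 32.8% rose and 33.7% fell.

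Among genes for receptor cleavage, Aph1b and Psen2, which encode subunits of γ-secretase, were called lower, as were 5.25% of all genes tested. Aph1b had 2101 and 2120 normalized counts in wt as against 291.0 and 344.7 in Top2β-null libraries, a log2 fold change of -2.73 (SE 0.0688, edgeR adjusted p = 5.5e-15). Its close paralog Aph1c had 61.6 and 54.1 normalized counts in wt as against 25.9 and 27.7 in Top2β-null libraries, and counts of these related genes may share reads. Psen2 had 525.9 and 640.4 normalized counts in wt as against 256.8 and 255.5 in Top2β-null libraries, a log2 fold change of -1.19 (SE 0.100, edgeR adjusted p = 2.7e-08). Aph1a and Ncstn, which encode further subunits, had log2 fold changes of 0.24 and 0.21. Adam10, the protease of the first cut, rose from 11953 and 11825 to 17480 and 17235 normalized counts. Of the 9 cleavage genes, 3 rose and 5 fell with the adjusted p alone, against 32.8% and 33.7% of all genes tested.

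The Fringe enzymes, which add sugars to Notch and so shift its preference between Delta and Jagged ligands, moved in opposite directions. Lfng had 2015 and 2073 normalized counts in wt as against 3460 and 3449 in Top2β-null libraries, and its log2 fold change was 0.76 (edgeR adjusted p = 7.1e-11). Rfng had 2128 and 2323 in wt and 1226 and 1203 in Top2β-null libraries, at a log2 fold change of -0.87 (edgeR adjusted p = 4.1e-10). Mfng had at most 6 counts in a library and was not tested. Neither Lfng nor Rfng reached the cut-off of 1, and both were picked for description after their values were seen, as were all other genes of the list that are named here without a call, apart from Rbpj.

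In the group of 13 genes for endocytosis and turnover, Dtx3l was called higher and Dtx4 lower, where 5.52% and 5.25% of all genes tested were called. Both encode ubiquitin ligases, and the related Dtx2 and Dtx3 were not called, with log2 fold changes of -0.33 and -0.18. Dtx3l had 15.1 and 17.4 normalized counts in wt as against 2427 and 2527 in Top2β-null libraries. Its log2 fold change of 7.24 (SE 0.101, edgeR adjusted p = 3.8e-18) was the largest fitted to a called gene of the list. Dtx3l is also known as an interferon-stimulated gene and partner of Parp9, whose gene overlaps it by 682 bases on the opposite strand and had a log2 fold change of 6.32 (edgeR adjusted p = 2.0e-17). Without the strand setting of the counting, reads from the shared bases of Dtx3l and Parp9 may not have been separated. Dtx4 was called lower, with 10618 and 10766 normalized counts in wt and 4280 and 4395 in Top2β-null libraries, at a log2 fold change of -1.30 (SE 0.0273, edgeR adjusted p = 5.6e-16). Dtx1 had 0 counts in both wt libraries and 19.7 and 24.8 normalized counts in the Top2β-null libraries, at least 7.50-fold higher against a floor of 3 counts per wt library. All 13 genes of this group passed the test, 9 of them higher and 4 lower, where 32.8% of all genes tested rose and 33.7% fell. Numb, an inhibitor of Notch, had a log2 fold change of 0.42 (edgeR adjusted p = 5.8e-07).

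The other ligands and targets were mostly low. Dlk2, a Delta-like protein without the domain by which canonical ligands bind Notch, was called lower with 3357 and 3270 normalized counts in wt and 1327 and 1496 in Top2β-null MEF cells (log2 fold change -1.23, SE 0.0523, edgeR adjusted p = 4.2e-12). Its relative Dlk1 had 24.2 and 8.69 normalized counts in wt as against 138.8 and 138.7 in Top2β-null libraries, with a mean over all libraries of less than 100. Dll3 had 16.4 to 23.8 normalized counts over all libraries, and Dll4 at most 3.03. Of the further targets, the 3 that could be tested all fell with the adjusted p alone, as did 33.7% of all genes tested. Hey2 had 366.4 and 341.0 normalized counts in wt as against 227.8 and 248.6 in Top2β-null libraries, Hes7 had 159.5 and 134.3 against 20.7 and 17.8, and Nrarp had 42.4 and 42.5 against 22.8 and 20.8. Their log2 fold changes were -0.57, -2.92 and -0.96, and none was called, since Hes7 and Nrarp had means under 100 over all libraries and Hey2 lay under the cut-off of 1.

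**Figure D4:**
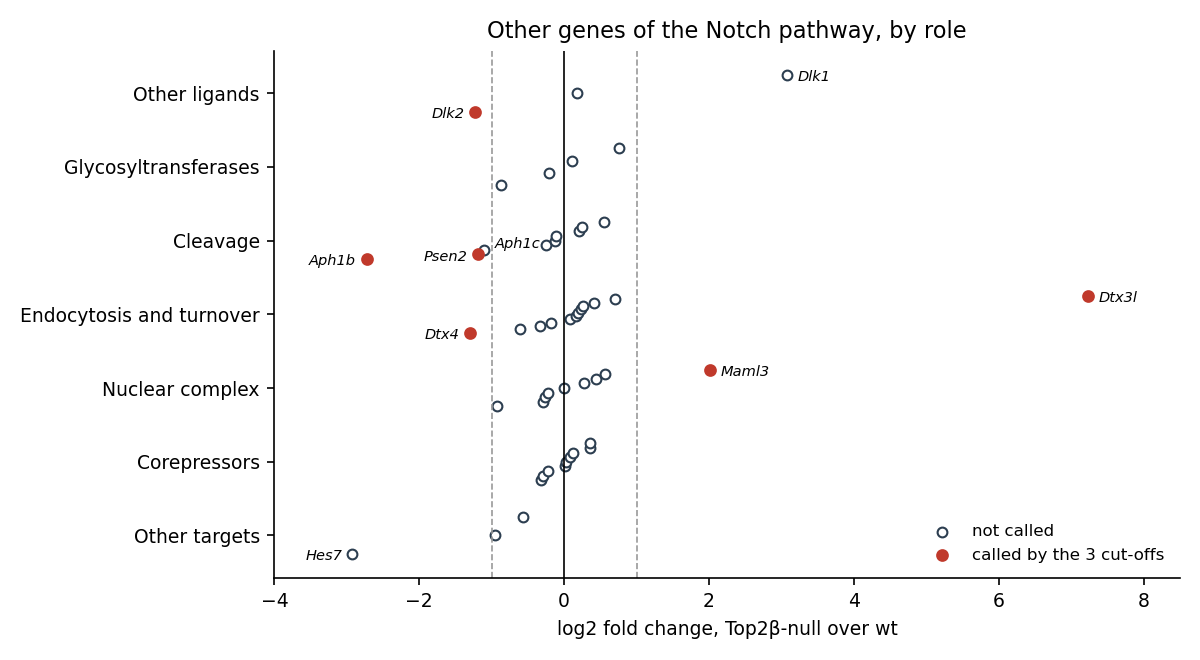
Log2 fold changes of Top2β-null over wt MEF cells for the genes of the wider Notch pathway list that were tested, by role (rows), with filled points for genes called by the 3 cut-offs and dashed lines at a log2 fold change of 1 in either direction. Dtx3l at 7.24 and Maml3 at 2.01 are the called genes to the right, Aph1b, Dtx4, Dlk2 and Psen2 those to the left, and Dtx1, with 0 counts in wt, is not drawn.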

How the data were processed

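RNA-seq of 2 wt and 2 Top2β-null MEF libraries, without ribosomal RNA, was used. The authors ran Trim Galore! and STAR (mm10, multi-mapping reads kept) and then TEtranscripts with an earlier Gencode release and repeat families. The deposited table holds raw counts, not normalized by the authors, with 1 column per library. The mode and strand setting of the counting are not given in the sources used here. Libraries were assigned to groups by their labels.

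Of 54842 gene identifiers, 54495 matched GENCODE release M21 (GRCm38) without version number, which gave symbols, positions and the union of exons per gene. Features that reached 10 counts in 2 or more libraries (25085 genes, 1481 repeat families) were fitted in R 4.3.3 with edgeR 4.0.16, using TMM factors over all features and genotype as the only term. Standard errors (SE) were derived as the size of the log2 fold change divided by the root of F. The fits were tested on simulated data. Alternatives were DESeq2 1.42.0, other scalings and filters, a replicate block, and leaving out each library. Shares were compared with scipy 1.17.1.

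The members, the list of 53 genes and the marker lists were chosen with earlier results of these data known. Text names the 10 members, Top2b, Rbpj and, from each group of the list, up to 2 called genes per direction with the largest change. Other genes were chosen after their values were seen. Fibroblast, mural and endothelial marker lists are reported beside the members. Of the other marker lists, 3 of 5 epithelial markers were tested and none was called, 3 of 5 leukocyte markers were tested and 1 was called lower, and all 5 neural markers were tested, with 2 called higher and 2 lower (5.52% and 5.25% over all genes tested).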

Additional observations from a re-analysis of the deposited data

How the results depend on the processing

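With all libraries kept, each of the 52 values that the alternatives gave for the 8 tested members kept its direction and its side of the adjusted p (edgeR or DESeq2). Notch3 ranged from 4.37 to 4.44, Notch1 from 1.03 to 1.10 and Jag1 from -1.13 to -1.06 in log2 fold change. With each library left out, Notch3 had 4.11 to 4.65, Notch1 0.98 to 1.08, Jag1 -1.16 to -1.08, Hes1 -0.40 to -0.27, Notch2 0.14 to 0.19, Hey1 0.061 to 0.55, Notch4 -0.61 to -0.22 and Jag2 -0.18 to 0.51. Notch4 passed the test at -0.61 without wt replicate 2 (edgeR adjusted p = 0.0191, with 0.0191 to 0.463 over its alternatives). A library left alone in its group is assumed in these fits to vary like the other group. Jag2 turned to -0.18 without wt replicate 1 and to -0.014 without Top2β-null replicate 2. The cause was not tested. The number of members called higher was 1 without wt replicate 2, where Notch1 fell below the cut-off, and 1 to 2 over the 4 fits with a library left out. With at least 100 counts in every library it was 1, because Notch3 is then removed from the fit, and 1 gene of the list was called higher, as Dtx3l is removed. With the adjusted p as the only cut-off, 2 members fell, and 23 genes of the list rose and 22 fell. Without division by length, the difference in share was 2.51 percentage points for Notch1, 1.72 for Notch3 and 0.411 for Dll1, by construction. Without a filter on low counts, Dll1 had a log2 fold change of 1.04 (adjusted p = 0.355) and Heyl 3.19 (adjusted p = 0.420) in edgeR, and neither passed. Both genotypes have replicates 1 and 2. Whether they pair the libraries is not shown by the data, since the deviations from the group means correlated at r = 0.021 between libraries of one number (17952 features, not independent). In a fit with a replicate block, the number of members called stayed at 2 higher and 1 lower, and Notch1 had a log2 fold change of 1.03. Depth limits Jag2, Dll1 and Heyl, each at 27 counts or fewer in a library.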
